A study of Mus musculus with 9 samples.

Results

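Myeloid C-type lectin receptors were followed as 10 genes, Clec4a1, Clec4a2, Clec4a3, Clec4b1, Clec4d, Clec4e, Clec4n, Clec5a, Clec7a and Clec12a, taken by symbol from the 24411 genes of the deposited table, in which all 10 were found. Bulk RNA-seq had been done on macrophage lines of C57BL/6 mice, with 3 YS lines grown from yolk sac of E9.5 embryos, 3 FL lines from fetal liver of E14.5 embryos and 3 BM lines from adult bone marrow. The labels name no engineered allele or drug treatment, and all 9 lines were expanded and kept with M-CSF, the macrophage growth factor they need, at 100 ng/mL. The paper describes the established lines as genetically unmodified, with ZsGreen added by lentivirus to its YS line #1 for transplantation. A line is the bulk culture of a separate dish or well, grown out of colonies in long-term culture, and the cells that founded it were pooled between animals. The sources do not say whether the lines of a group came from separate pools, so p-values measure only the spread between these cultures.

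C-type lectin receptors of myeloid cells recognise sugars and lipids of fungi and mycobacteria, and some recognise material of dead cells. Dectin-1 (Clec7a) carries its own activating tail, whereas Dectin-2 (Clec4n), MCL (Clec4d), Mincle (Clec4e) and DCAR (Clec4b1) signal through the adaptor FcRγ (Fcer1g), and MDL-1 (Clec5a) through DAP12 (Tyrobp). These routes meet at the kinase Syk and the CARD9, BCL10 and MALT1 complex. DCIR (Clec4a2) and MICL (Clec12a) instead carry inhibitory motifs that recruit the phosphatases SHP-1 and SHP-2. The RefSeq gene table of GRCm38.p6 places all 10 of these genes on chromosome 6.

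Values are TPM, shares of all transcripts scaled to a fixed total and corrected for transcript length, so that levels of different genes can be set side by side. TPM keep no number of reads, so sequencing depth is unknown, and precision was judged from how far the 3 lines of each group lay apart. All 8 macrophage markers checked, among them Csf1r, Adgre1 and Cd68, were at 1 TPM or more in each of the 9 lines, and their sum was lowest in YS line 1 (4066 TPM) and at most 9175 TPM in YS lines. FL lines held between 11543 and 28150 TPM of them, and BM lines between 11438 and 13167 TPM. Lyz2 was the highest of the 8 in each line, at 1163 to 3531 TPM in YS, 5806 to 21976 TPM in FL and 5986 to 7841 TPM in BM lines. Fcgr1, in contrast, was lowest in BM lines, at 5.47, 42.10 and 1.68 TPM against at least 110.13 TPM in each other line. The 6 monocyte markers summed to between 1.90 and 9.13 TPM in YS lines, between 0.60 and 2.19 TPM in FL lines and between 0.04 and 0.49 TPM in BM lines, with Chil3 listed at 0 in all lines. Of 4 T cell markers, Cd3d, Cd3e and Cd3g were listed at 0 in all lines and Lck was at 0.52 to 4.65 TPM. The granulocyte markers summed to between 10.6 and 25.6 TPM in FL lines, nearly all of it S100a8, against at most 2.51 TPM in any YS line and 5.00 TPM in any BM line, and 4 of them (S100a9, Elane, Ngp and Retnlg) were listed at 0 in all lines. BM line 2 stood apart from the other BM lines, with 40.20 TPM of Mrc1 against 0.00 and 0.06 TPM and with 214.99 TPM of the globin gene Hba-a1 against 0.30 TPM in each of the others. Markers of osteoclasts summed to between 96.8 and 1277 TPM in BM lines, mostly Ctsk, against at most 54.9 TPM in any YS line and 4.28 TPM in any FL line. Other genes of that list were not highest in BM lines: Dcstamp had 44.01, 28.68 and 5.16 TPM in the YS lines against 3.46 to 6.15 TPM in the BM lines, and Acp5 and Ocstamp were highest in YS line 1 (6.86 and 3.70 TPM). Markers of endothelial cells summed to at most 3.20 TPM in BM lines against at least 19.0 TPM in the other lines. This sum was mostly Kdr in FL lines (17.37, 17.47 and 50.36 TPM) and mostly Tie1 in YS line 1 (25.82 TPM, with Kdr at 0.29 TPM). Pecam1 was lowest in BM lines 1 and 3 (0.05 and 0 TPM), but BM line 2 (0.56 TPM) was above the FL lines (0.10 to 0.25 TPM). The part of these markers in the differences below was not tested. For the receptor genes, calls that change without BM line 2 or YS line 1 are given without them too, as are some of the sizes.

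Clec4d was the highest of the 10 genes in each group, averaging 458 ± 112.5 TPM over the YS lines, 776 ± 256 TPM over the FL lines and 1019 ± 77.8 TPM over the BM lines (mean ± SD, n = 3 per group). It encodes MCL, which forms a receptor complex with Mincle for mycobacterial glycolipids. In YS lines, Clec4e, Clec5a, Clec4a3, Clec12a, Clec4a1, Clec4a2, Clec4n and Clec7a followed in this order, and no neighbours in this order from Clec4d to Clec7a were separated in all lines. In FL lines the order was Clec4d, Clec5a, Clec12a, Clec4e, Clec4a3, Clec4a2, Clec4a1, Clec4n and Clec7a, and only Clec4d and Clec5a, and Clec4n and Clec7a, were neighbours whose lines did not overlap. In BM lines the order was Clec4d, Clec4e, Clec12a, Clec5a, Clec4n, Clec4a2, Clec7a, Clec4a3 and Clec4a1, with overlap between Clec4e and Clec12a, between Clec4n and Clec4a2 and between Clec4a3 and Clec4a1. Clec4b1 was the lowest in every group, at 1.44 TPM or less.

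**Figure D1:**
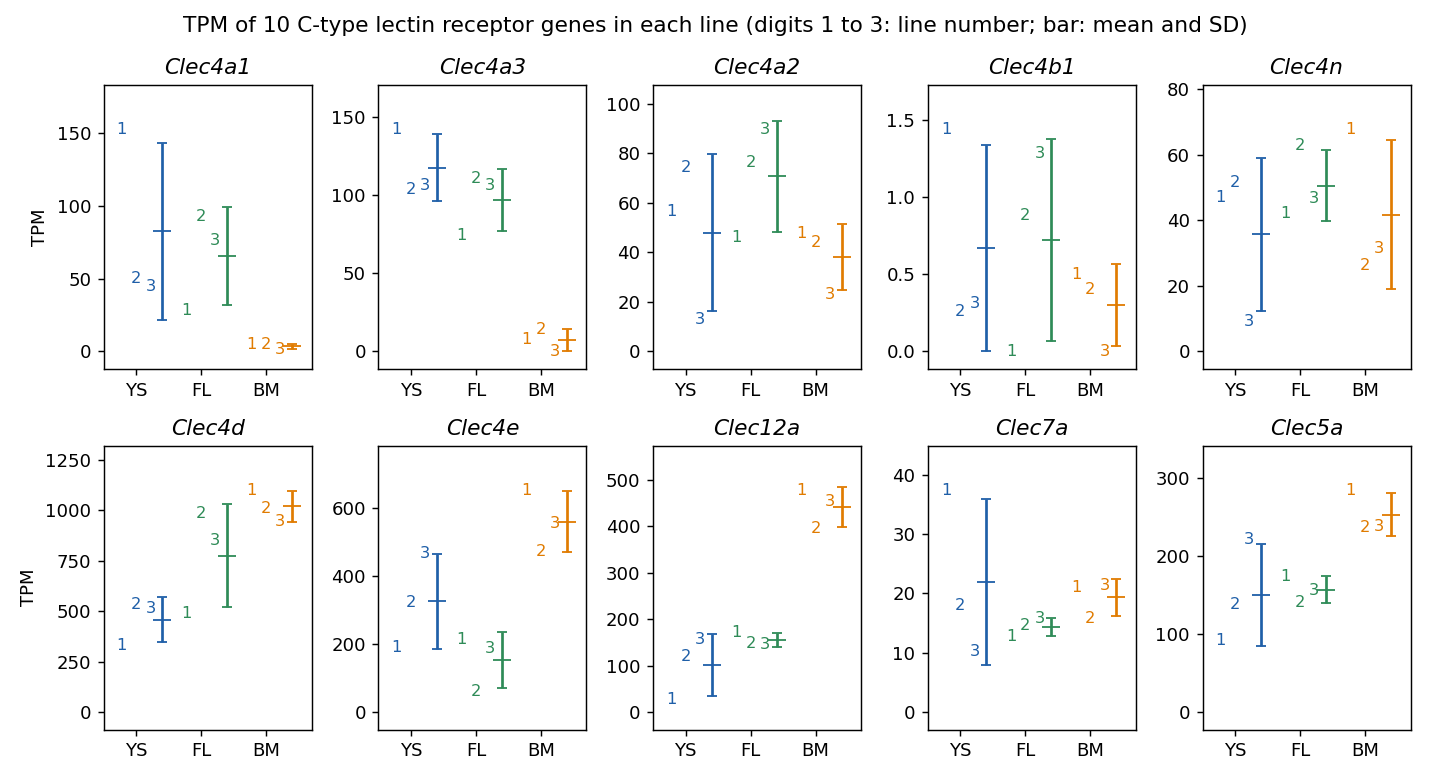
TPM (linear vertical axes, each panel with its own scale) of the 10 receptor genes in YS, FL and BM lines. Each digit is the line of that number, and the horizontal mark with its bar is the mean ± SD of the 3 lines. Clec4a1 and Clec4a3 sit near the bottom in all BM lines, whereas Clec12a, Clec4e and Clec5a are highest there.

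Differential expression was tested with limma on log2(TPM + 1) over the 11753 genes that reached 1 TPM in at least 3 of the 9 libraries, and a gene was called at an adjusted p under 0.1 with a difference above 2-fold on that scale. The scale understates changes of low genes. Of the 10 receptor genes, 9 were tested and Clec4b1 was not. Between YS and BM lines, 4 of the 9 were called (44.4%, against 12.8% of all genes tested), with 2 higher in YS lines (7.57% of all genes) and 2 lower (5.22% of all genes). Between FL and BM lines, again 4 of the 9 were called (against 10.3% of all genes tested), with 2 higher in FL lines (6.01% of all genes) and 2 lower (4.30% of all genes). The 2 comparisons share the BM lines. The median log2 fold change of the 9 genes was -0.42 between YS and BM lines and -0.40 between FL and BM lines, where the median of all genes tested was 0.11 and 0.09. The median absolute change was 0.86 and 0.89, where that of all genes was 0.36 and 0.30.

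Clec4a1 and Clec4a3, which encode relatives of the receptor DCIR and are also called Dcir4 and Dcir3, were low in BM lines and well expressed in the others. Clec4a1 had 152.85, 50.31 and 44.42 TPM in the YS lines, 28.05, 92.89 and 76.51 TPM in the FL lines, and 4.58, 4.32 and 1.47 TPM in the BM lines. Each YS and FL line was thus above every BM line, and YS and FL lines overlapped. The mean TPM was 23.9-fold higher in YS than in BM lines and 19.0-fold higher in FL than in BM lines. On the log2 scale of the test, YS lines exceeded BM lines by 4.08 (limma adjusted p = 0.00304, standard error 0.59) and FL lines exceeded them by 3.83 (adjusted p = 0.00336, standard error 0.59). Without YS line 1 the former was 3.53, and without BM line 2 they were 4.26 and 4.00. As these are bulk libraries, fewer cells that express a gene and less RNA per cell cannot be told apart.

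Clec4a3 had 142.00, 103.64 and 106.18 TPM in the YS lines, 74.20, 110.45 and 106.22 TPM in the FL lines, and 7.67 and 13.70 TPM in the first 2 BM lines, and was listed at 0 in BM line 3. Again no BM line reached any YS or FL line. Mean TPM was 16.5-fold higher in YS than in BM lines and 13.6-fold higher in FL than in BM lines. On the log2 scale, YS lines exceeded BM lines by 4.54 (limma adjusted p = 0.00672, standard error 0.83) and FL lines exceeded them by 4.26 (adjusted p = 0.00885, standard error 0.83). These sizes depended on the BM lines used: they were 3.37 and 3.10 without BM line 3, and 5.31 and 5.03 without BM line 2, with the calls kept. The summed monocyte markers, given above, were also lowest in BM lines, and their part in this difference was not tested.

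Clec12a, which encodes the inhibitory receptor MICL, moved the other way. It had 26.98, 120.25 and 155.51 TPM in the YS lines, 172.10, 147.84 and 144.94 TPM in the FL lines, and 478.58, 394.88 and 453.82 TPM in the BM lines. All BM lines were above all YS and FL lines, and YS line 1 was the lowest of the 9. Mean TPM was 4.38-fold higher in BM than in YS lines and 2.86-fold higher in BM than in FL lines. For YS against BM lines, the log2 fold change was -2.45 (limma adjusted p = 0.0129, standard error 0.54), and it was -1.68 without YS line 1 (adjusted p = 0.00123). Between FL and BM lines it was -1.51 (adjusted p = 0.0847, standard error 0.54). This call was near its threshold and was lost in 9 of 20 alternatives, among them the omission of any FL line (adjusted p from 0.145 to 0.175) or any BM line (adjusted p from 0.149 to 0.207), while the log2 fold change stayed between -1.60 and -1.45. Without YS line 1, the standard error between FL and BM lines was 0.13 and the adjusted p 0.000615.

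Clec4d was lower in YS than in BM lines. It had 328.93, 534.55 and 510.71 TPM in the YS lines, 490.44, 985.25 and 852.39 TPM in the FL lines, and 1100.87, 1011.26 and 946.01 TPM in the BM lines. YS and BM lines did not overlap, and FL lines spread from the level of YS lines to that of BM lines. For YS against BM lines, the log2 fold change was -1.18 (limma adjusted p = 0.0156, standard error 0.27), and without YS line 1 it was -0.96, under the 2-fold limit (adjusted p = 0.0343). Between FL and BM lines it was -0.45 (95% confidence interval -1.07 to 0.17, adjusted p = 0.288).

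Clec4e encodes Mincle, the partner of MCL, and was lower in FL than in BM lines. It had 188.17, 322.40 and 467.72 TPM in the YS lines, 212.27, 60.01 and 186.79 TPM in the FL lines, and 653.07, 472.53 and 554.19 TPM in the BM lines. All BM lines were above all other lines, YS line 3 being closest. For FL against BM lines, the log2 fold change was -2.05 (limma adjusted p = 0.0195, standard error 0.48), and it was -1.47 without FL line 2, with the call kept. Between YS and BM lines it was -0.86 (95% confidence interval -1.96 to 0.24, adjusted p = 0.211), and -0.51 without YS line 1 (adjusted p = 0.475). YS and FL lines did not differ by a call (log2 fold change 1.18, standard error 0.48, adjusted p = 0.171), so the change against BM lines is not shown to differ between YS and FL lines.

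Clec5a encodes MDL-1, a DAP12-coupled activating receptor, and its 3 BM lines were also above all others without a call. It had 92.19, 137.56 and 221.67 TPM in the YS lines, 174.48, 140.74 and 155.98 TPM in the FL lines, and 284.89, 237.35 and 237.93 TPM in the BM lines. For YS against BM lines, the log2 fold change was -0.83 (limma adjusted p = 0.0508, standard error 0.27) and for FL against BM lines -0.69 (adjusted p = 0.114, standard error 0.27), both under the 2-fold limit. Without YS line 3, the one YS line near BM lines, it was -1.16 between YS and BM lines and was called (adjusted p = 0.00745). Without YS line 1 it was instead -0.53 (adjusted p = 0.0908), and without BM line 1 it was -0.75 (adjusted p = 0.154), in neither case called. Counting all 9 tested genes, YS and BM lines did not overlap in 6 (against 49.0% of all genes tested), of which 2 were higher in YS lines (30.3% of all genes) and 4 lower (18.7%). FL and BM lines did not overlap in 6 either (against 49.5%), of which 2 were higher in FL lines (31.0%) and 4 lower (18.5%).

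Clec7a, Clec4n and Clec4a2 were not called in any comparison. Clec7a encodes Dectin-1, the receptor for fungal β-glucan, and had 37.47, 18.00 and 10.23 TPM in the YS lines, 12.76, 14.56 and 15.75 TPM in the FL lines, and 21.06, 15.80 and 21.28 TPM in the BM lines. Its YS lines spanned all other lines, and the log2 fold change between YS and BM lines was -0.00285 (95% confidence interval -0.87 to 0.86, limma adjusted p = 0.996). FL lines were just below BM lines (log2 fold change -0.40, 95% confidence interval -1.26 to 0.46, adjusted p = 0.505).

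Clec4n encodes Dectin-2, a receptor for fungal mannans. It had 46.81, 51.40 and 8.93 TPM in the YS lines, 42.04, 62.69 and 46.60 TPM in the FL lines, and 67.72, 26.10 and 31.31 TPM in the BM lines. Clec4a2 encodes DCIR itself. It had 56.49, 74.29 and 12.91 TPM in the YS lines, 45.83, 76.27 and 89.61 TPM in the FL lines, and 47.35, 43.78 and 22.76 TPM in the BM lines. In both genes the groups overlapped and YS line 3 was the lowest of the 9 lines. The intervals stay wide: for YS against BM lines the 95% confidence interval of the log2 fold change ran from -1.83 to 0.98 for Clec4n and from -1.29 to 1.44 for Clec4a2, and for FL against BM lines from -1.03 to 1.78 and from -0.47 to 2.25. Clec4b1, which encodes DCAR, had 1.44, 0.26 and 0.31 TPM in the YS lines, 0.88 and 1.28 TPM in FL lines 2 and 3, and 0.50 and 0.40 TPM in BM lines 1 and 2, and was listed at 0 in FL line 1 and BM line 3. Exact two-sided permutation tests on log2(TPM + 1) of Clec4b1 gave p = 0.6 for YS against BM, 0.5 for FL against BM and 1 for YS against FL lines, where 0.1 is the smallest p that 3 lines against 3 allow, so no difference could have passed 0.05.

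**Figure D2:**
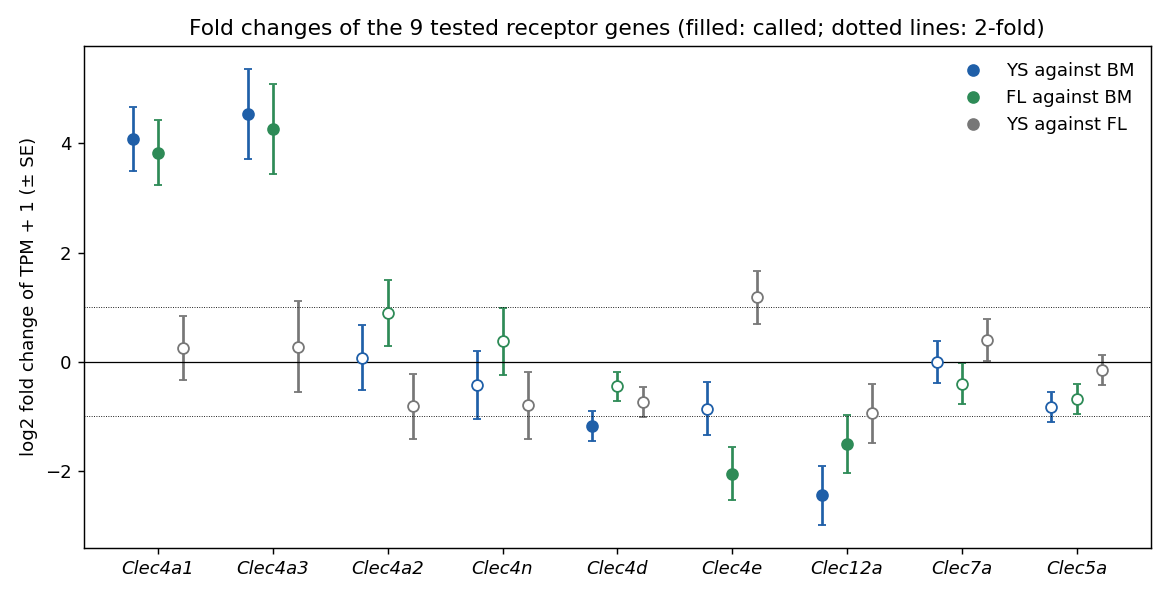
Log2 fold change of TPM + 1 (vertical axis, ± standard error of limma) of the 9 tested genes in each comparison. Filled points were called, and dotted lines mark a 2-fold change. Clec4a1 and Clec4a3 are called upward against BM lines from both embryonic sources, Clec12a downward in both, Clec4d in YS lines and Clec4e in FL lines.

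Between YS and FL lines, limma called 0 of the 9 genes (against 3.79% of all genes tested, 1.95% higher and 1.85% lower in YS lines), while 2 of them (Clec4d and Clec4e) had an unadjusted p under 0.05. The YS and FL lines overlapped in all 9, whereas 26.1% of all genes tested had no overlap (12.6% higher and 13.5% lower in YS lines). The log2 fold changes ranged from -0.94 for Clec12a to 1.18 for Clec4e. For Clec4a1 it was 0.25 (95% confidence interval -1.09 to 1.60) and for Clec4a3 0.28 (95% confidence interval -1.60 to 2.16), so differences of 2-fold lie within both intervals. Without YS line 1, the log2 fold change was -0.17 for Clec12a and -0.30 for Clec4a1. Without FL line 1, Clec4d was called lower in YS than in FL lines (log2 fold change -1.03, limma adjusted p = 0.0453).

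Summed over the 10 genes, YS lines held 1342 ± 241 TPM, FL lines 1540 ± 249 TPM and BM lines 2385 ± 245 TPM (mean ± SD, n = 3 per group), with the BM lines above all others. Clec4d made up between 30.6% (YS line 1) and 58.2% (FL line 2) of this sum. Clec4a1 and Clec4a3 together made up 27.5% in YS line 1, between 8.17% and 12.0% in the other YS and FL lines (the highest being FL line 2), and 0.459%, 0.812% and 0.0648% in BM lines 1 to 3. Clec12a made up 2.51% in YS line 1 and between 17.8% and 20.0% in BM lines.

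**Figure D3:**
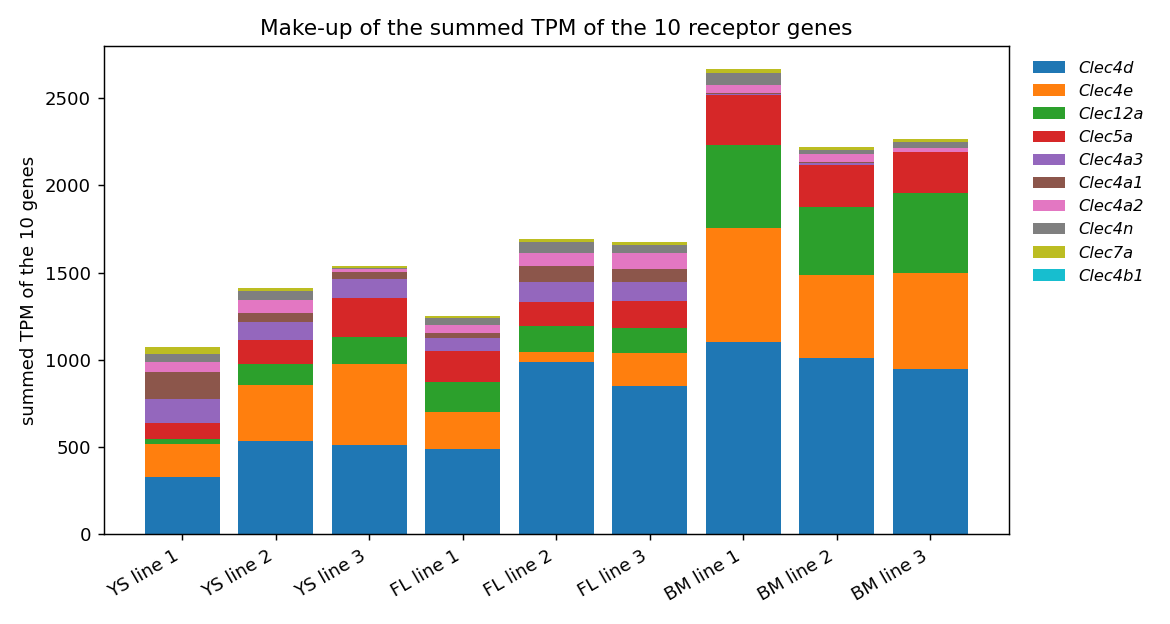
Summed TPM of the 10 receptor genes (vertical axis, from 0) in each of the 9 lines, stacked by gene. BM lines hold the largest sums, from 2220 to 2666 TPM, with almost no Clec4a1 or Clec4a3, and YS line 1 holds the smallest, 1073 TPM.

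Of the 10 genes, 7 lie in the cluster that runs from Clec4a1 to Clec4e, known as the Dectin-2 cluster, and Clec12a and Clec7a lie in the Dectin-1 cluster, while Clec5a lies apart. Along the Dectin-2 cluster the order of the C-type lectin genes is Clec4a1, Clec4a3, Clec4a4, Clec4b1, Clec4a2, Clec4b2, Clec4n, Clec4d and Clec4e. The genes lower in BM lines lay at 1 end of it. Clec4a4, next to Clec4a3, had 2.50, 1.50 and 2.59 TPM in the YS lines, 1.02, 1.28 and 1.15 TPM in the FL lines, and 0.35, 0.16 and 0.17 TPM in the BM lines. It was low throughout, with all BM lines below all others, and passed the filter on low values only through the YS and FL lines, so its test is not given as support. Clec4n, in the middle, was not called in any comparison. At the other end, Clec4d was called higher in BM lines only against YS lines, and not without YS line 1, and Clec4e only against FL lines. Clec4b2 was at 0.16 TPM or less in each line. The nearest protein-coding genes before the cluster, Necap1 and then C3ar1, were read beside it. Necap1 had 175.38, 101.98 and 140.56 TPM in the YS lines, 85.70, 87.33 and 85.41 TPM in the FL lines, and 55.78, 61.22 and 49.53 TPM in the BM lines, so that its BM lines were the lowest. C3ar1 had 544.58, 409.09 and 454.13 TPM in the YS lines, 446.13, 526.48 and 241.91 TPM in the FL lines, and 361.19, 383.10 and 361.56 TPM in the BM lines, so that YS lines were above BM lines and FL lines overlapped them.

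**Figure D4:**
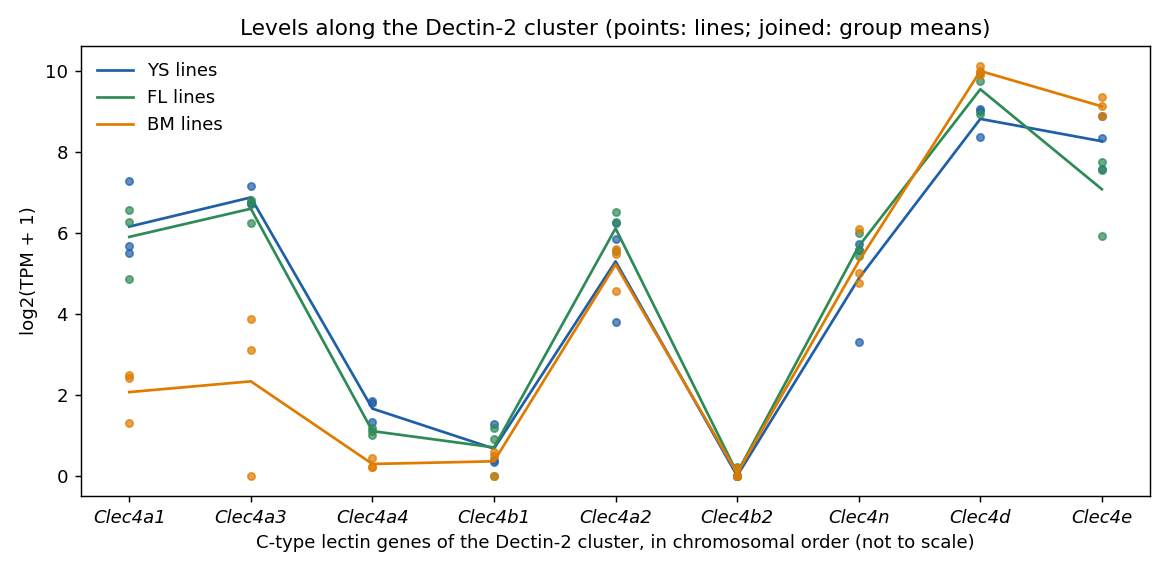
Log2(TPM + 1) (vertical axis) of the 9 C-type lectin genes of the Dectin-2 cluster in chromosomal order, not to scale. Points are lines and joined values are the means of YS, FL and BM lines. BM lines are lowest from Clec4a1 to Clec4a4, near the others from Clec4b1 to Clec4n, and highest at Clec4e. At Clec4d the BM mean is highest, but FL and BM lines overlap.

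Genes of this cluster are close relatives, and reads that fit more than 1 of them could be split between them. In the protein-coding transcripts of GENCODE M21, none of the stretches of 75 bases, the length of the reads, of Clec4a1 (1484 stretches) or Clec4a3 (1326 stretches) occurred in a transcript of any other gene. The same held for Clec4d, Clec4e, Clec4n, Clec5a, Clec7a and Clec12a. Clec4a2 shared 2.98% of its stretches with Clec4a4 and 0.27% with Clec4b1, and Clec4b1 shared 1.02% of its stretches with Clec4a2. Exact matches alone were counted, and the annotation that the authors used is not given in the sources used here.

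Promoters were read for 9 of the 10 genes from RefSeq (GRCm38.p6), as the 250 bases before the start site, and 4 of them are shown, since they belong to the called genes at the 2 ends of the Dectin-2 cluster. Clec4a1 (chr6:122921598-122921847, plus strand) and Clec4a3 (chr6:122952265-122952514, plus strand) were low in BM lines. Clec4d (chr6:123261857-123262106, plus strand) and Clec4e (chr6:123289872-123290121, minus strand) were each higher in BM lines in 1 comparison. They are written 5′ to 3′ along the gene's strand, and capitals mark the motifs listed after them.
Clec4a1: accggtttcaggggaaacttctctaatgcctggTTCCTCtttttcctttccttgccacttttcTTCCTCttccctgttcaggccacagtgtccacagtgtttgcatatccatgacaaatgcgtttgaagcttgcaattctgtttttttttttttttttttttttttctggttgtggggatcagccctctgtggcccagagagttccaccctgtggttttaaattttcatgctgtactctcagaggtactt
Clec4a3: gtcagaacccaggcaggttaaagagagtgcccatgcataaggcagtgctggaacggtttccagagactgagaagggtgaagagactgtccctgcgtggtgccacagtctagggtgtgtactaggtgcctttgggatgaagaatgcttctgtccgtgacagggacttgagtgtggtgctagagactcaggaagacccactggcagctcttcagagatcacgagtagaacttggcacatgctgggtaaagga
Clec4d: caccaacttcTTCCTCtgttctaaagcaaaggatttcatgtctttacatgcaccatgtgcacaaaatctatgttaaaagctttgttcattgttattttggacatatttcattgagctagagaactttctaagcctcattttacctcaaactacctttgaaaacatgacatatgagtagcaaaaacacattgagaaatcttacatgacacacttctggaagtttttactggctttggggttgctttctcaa
Clec4e: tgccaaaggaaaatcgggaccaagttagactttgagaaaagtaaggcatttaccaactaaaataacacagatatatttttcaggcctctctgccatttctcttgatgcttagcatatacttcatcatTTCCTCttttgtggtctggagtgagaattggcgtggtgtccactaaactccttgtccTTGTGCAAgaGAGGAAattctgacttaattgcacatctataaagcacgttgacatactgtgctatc

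The search covered 6 short motifs on both strands: GAGGAA (the core bound by PU.1, the main myeloid ETS factor), TTGCNNAA (C/EBP), TGANTCA (AP-1), an IRF element (GAAA repeated after a gap), CACGTG (an E-box of MITF and TFE factors) and TGCTGA (a MAF half-site). The PU.1 core was in the promoters of 7 of the 9 genes, against 23.3% of the 32851 mouse promoters of the same length. Clec4a1 had it at 217 to 212 and at 187 to 182 bases before the start, and Clec4d at 240 to 235. Clec4e had it at 123 to 118 and at 56 to 51 bases, the latter next to a C/EBP match at 66 to 59 bases. The C/EBP motif was found in 9.6% of all promoters and, among the 9, in Clec4e and Clec12a. The stretch read for Clec4a3 lies before the first of its 2 RefSeq starts and held none of the 6 motifs, whereas the 250 bases before its other start, 129 bases downstream, held the PU.1 core. Clec7a also has another start, 6 bases downstream, with the same motif as the first. AP-1 matched Clec12a (6.7% of all promoters), IRF matched Clec4b1, where it overlaps a PU.1 core (3.0%), the MAF half-site matched Clec4a2 and Clec5a (16.1%), and the E-box matched none of the 9 (6.0%). These are matches of letters, not measured binding. The stretches read for Clec4a2, Clec5a and Clec12a overlap annotated exons of GENCODE M21, so they are not all sequence outside transcripts.

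The lines of a group were not alike in their receptors. YS line 1 had the highest Clec4a1, Clec4a3, Clec4b1 and Clec7a of all 9 lines and the lowest Clec12a, Clec4d and Clec5a. It was also the line with the lowest sum of macrophage markers, with Lyz2, Csf1r and Cd68 lowest there. Adgre1 and Itgam were instead lowest in YS line 3 (132.15 and 195.82 TPM), and Mertk, Fcgr1 and Cd14 in BM or FL lines. The part of these markers in the receptor values was not tested. YS line 3 had the lowest Clec4a2, Clec4n and Clec7a. Across YS lines, the SD of log2(TPM + 1) was 1.35 for Clec4n, 1.34 for Clec12a and 1.31 for Clec4a2 but 0.25 for Clec4a3. In FL lines it was highest for Clec4e (0.99) and Clec4a1 (0.91), and in BM lines for Clec4a3 (2.05), while Clec4d, Clec12a and Clec5a had 0.11, 0.14 and 0.15 there. The neighbours Clec4d and Clec4e did not move together in FL lines, where line 2 had the highest Clec4d (985.25 TPM) and the lowest Clec4e (60.01 TPM).

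As a description of likeness, Pearson's r of log2(TPM + 1) was taken over the 9 libraries, which fall into 3 groups, and since all genes share these groups no relation was tested. Among the receptor genes, r was 0.935 for Clec4a1 with Clec4a3, 0.933 for Clec5a with Clec12a, 0.840 for Clec4a2 with Clec4n and 0.827 for Clec4d with Clec12a. It was -0.881 for Clec4a1 with Clec12a and 0.148 for Clec4d with Clec4e. Among all other genes tested, the 3 most like Clec4a3 were Ctsc, Cybb and Lgmn (r = 0.980, 0.978 and 0.977), which encode cathepsin C, a subunit of the phagocyte NADPH oxidase and legumain. Ctsc had 762.62, 503.55 and 317.57 TPM in the YS lines, 218.61, 429.68 and 396.52 TPM in the FL lines, and 19.25, 71.54 and 5.58 TPM in the BM lines. Those most like Clec4a1 included Gmfg and Zfp141 (r = 0.983 and 0.978). For Clec5a the 3 were Pparg, Sp3os and Stx3 (r = 0.988, 0.980 and 0.978). Pparg, a nuclear receptor of lipid metabolism, had 0.25, 2.26 and 13.00 TPM in the YS lines, 4.97, 2.43 and 3.14 TPM in the FL lines, and 26.24, 23.58 and 16.74 TPM in the BM lines. For Clec12a they were Prickle3, Mbd2 and Map4k5 (r = 0.982, 0.979 and 0.976), for Clec4d Ppt2, Fgd3 and Ykt6 (r = 0.969, 0.968 and 0.964) and for Clec4e Gyk, Plod3 and Fxyd5 (r = 0.970, 0.970 and 0.962). The nearest to Clec7a was Cog8 (r = 0.973), followed by Rasa3 and Psen2. For Clec4n it was Ormdl1 (r = 0.926), followed by Akr1c12 and Narfl. For Clec4a2 it was Creld1 (r = 0.932), followed by Slc7a7 and Ap3s1.

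Few of the signaling genes below these receptors changed by more than 2-fold. Without a fold limit, 12 passed the test between YS and BM lines and 13 between FL and BM lines. Of all 11753 genes tested, 4455 and 3247 passed at this setting, so these counts are not read as particular to signaling genes. Of 28 listed genes, 27 were found and 26 tested. Fcer1g averaged 2505.5 ± 83.6 TPM over the YS lines, 3046 ± 316 TPM over the FL lines and 2511 ± 161 TPM over the BM lines (mean ± SD, n = 3 per group), and Tyrobp 2280 ± 216.5 TPM, 2314 ± 424 TPM and 3150 ± 160.0 TPM. By group means, both adaptors stood above the summed receptors in TPM. The genes called between YS and BM lines were 2 of the 26 (7.69%, against 12.8% of all genes tested), with Tec higher and Src lower in YS lines. Without YS line 1, Tec was under the 2-fold limit (log2 fold change 0.87). The genes called between FL and BM lines were 3 of the 26 (11.5%, against 10.3%), with Lyn higher and Src and Lat2 lower in FL lines. limma called 0 between YS and FL lines, where 8 had an unadjusted p under 0.05. Their median absolute log2 fold change was 0.35, 0.39 and 0.18 in these comparisons, where that of all genes was 0.36, 0.30 and 0.27.

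Src, which encodes a kinase that phosphorylates ITAM tyrosines in several cell types, had 0.26, 0.81 and 0.59 TPM in the YS lines, 0.67, 0.14 and 0.39 TPM in the FL lines, and 7.09, 5.17 and 6.93 TPM in the BM lines. It passed the filter on low values only through the BM lines, so its calls are a description (log2 fold change -2.26 for YS and -2.41 for FL against BM lines). Lyn, the related kinase, averaged 176.75 ± 28.8 TPM over the YS lines, 200 ± 24.7 TPM over the FL lines and 95.7 ± 6.92 TPM over the BM lines (mean ± SD, n = 3 per group). Syk, the kinase to which the activating receptors couple, averaged 52.1 ± 2.96 TPM over the YS lines, 76.6 ± 8.97 TPM over the FL lines and 85.9 ± 4.31 TPM over the BM lines (mean ± SD, n = 3 per group). Its change was under 2-fold between YS and BM lines (log2 fold change -0.71, limma adjusted p = 0.00384, standard error 0.11). Log2 fold changes of Card9 and Bcl10 lay between -0.18 and 0.16 in the 3 comparisons. Malt1 was lower in FL than in BM lines, by a log2 fold change of -0.75 (adjusted p = 0.00485, standard error 0.13), under the 2-fold limit.

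Other C-type lectin genes were sparse: of 38 listed, 10 passed the filter on low values. Between YS and BM lines, 5 of the 10 were higher in YS lines (Clec4a4, Clec10a, Mrc1, Colec12 and Cd69) and Cd207 was lower. Between FL and BM lines, Clec10a, Mrc1 and Colec12 were higher in FL lines. The calls were 60% and 30% of the 10 in these comparisons, against 12.8% and 10.3% of all genes tested. Between YS and FL lines they were 10%, against 3.79%. Some of these genes passed the filter only through the groups in which they are high, so the counts and shares are a description. Clec10a, which encodes the galactose-binding lectin MGL1, had 1.76, 9.91 and 5.54 TPM in the YS lines, 26.52, 18.17 and 16.78 TPM in the FL lines, and 0.20 and 1.34 TPM in the first 2 BM lines, and was listed at 0 in BM line 3. FL lines exceeded YS lines in it (log2 fold change -1.86 for YS against FL lines, limma adjusted p = 0.0694, standard error 0.51), the only call of the list in that comparison, and it was lost without YS line 1, FL lines 2 or 3, or BM lines 1 or 3, when the count of the list was 0, while without YS lines 2 or 3 the count was 2. Cd207, which encodes langerin of Langerhans cells, had 2.58, 72.11 and 17.02 TPM in the YS lines, 26.40, 69.81 and 97.81 TPM in the FL lines, and 171.41, 131.39 and 83.97 TPM in the BM lines (YS against BM lines: log2 fold change -2.90, limma adjusted p = 0.0539, standard error 0.96). Without YS line 1 it was -1.78 (adjusted p = 0.0969), and the call was lost without BM line 2 (adjusted p = 0.119). Without BM line 2, the log2 fold changes of Mrc1 against BM lines went from 6.48 to 8.25 in YS lines and from 7.20 to 8.97 in FL lines, and those of Colec12 from 6.54 to 8.61 and from 6.76 to 8.83. Clec4g, Cd209a, Cd209b and Clec14a were listed at 0 in all lines.

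**Figure D5:**
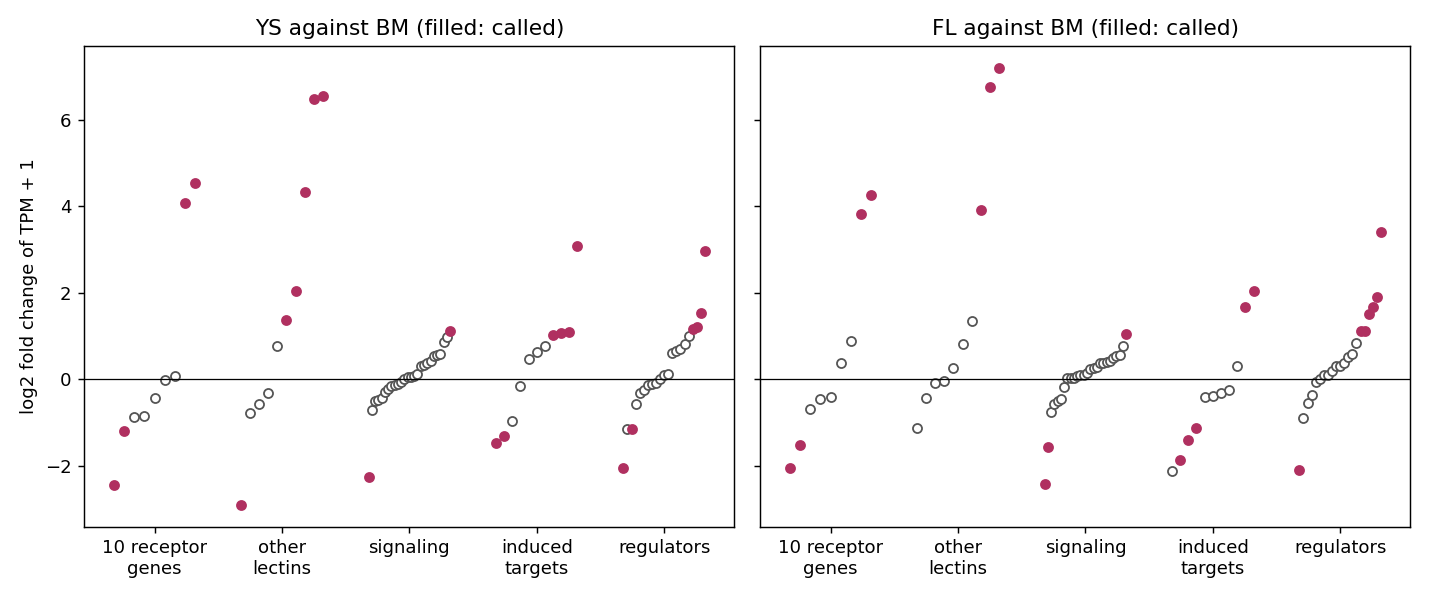
Log2 fold change of TPM + 1 (vertical axis) of each tested gene of the 10 receptor genes and of the 4 other lists, for YS against BM lines (left) and FL against BM lines (right), with genes of a list in rank order. Filled points were called. The signaling genes lie close to 0 but for Src and a few others, whereas both lectin lists spread more widely.

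Genes that signaling by Dectin-1, Dectin-2 or Mincle is known to induce were read in these lines without an added microbial ligand. Of 20, 11 were tested. Between YS and BM lines 4 were higher in YS lines (Ccl3, Ccl4, Egr3 and Nr4a1) and 2 lower (Egr2 and Il1rn), 54.5% of the 11 against 12.8% of all genes tested. Between FL and BM lines 2 were higher in FL lines (Il1b and Ccl4) and 3 lower (Ptgs2, Egr2 and Nr4a1), 45.5% of the 11 against 10.3% of all genes tested. Between YS and FL lines 5 were higher in YS lines (Ccl3, Ccl4, Ptgs2, Egr3 and Nr4a1), 45.5% of the 11 against 3.79% of all genes tested. These counts depended on single lines: between YS and BM lines the 6 became 2 without BM line 1 and 3 without YS line 3 or BM line 3, and between YS and FL lines the 5 became 3 without FL lines 1 or 3 or BM line 1. Without YS line 1, Egr3 and Il1rn were not called between YS and BM lines (log2 fold change 0.64 and -0.81), nor Egr3 between YS and FL lines, and without BM line 2 these 3 calls and that of Nr4a1 between FL and BM lines were lost. Il6, Il12b, Il23a, Csf2 and Nos2 stayed at 2.55 TPM or less in each line, Il2 and Cxcl1 were listed at 0 in all lines, and Tnf averaged 90.8 ± 43.6 TPM over the YS lines, 76.7 ± 20.6 TPM over the FL lines and 93.4 ± 5.15 TPM over the BM lines (mean ± SD, n = 3 per group). Ptgs2, which encodes COX-2, had 11.06, 2.68 and 3.13 TPM in the YS lines and 3.52, 2.91 and 2.86 TPM in the BM lines but 0.29 TPM or less in each FL line (FL against BM lines: log2 fold change -1.87). It, and likewise Il1b in BM lines and Egr3 in FL lines, was under 1 TPM in the low group and passed the filter through the others, so these calls are a description.

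Of 21 genes listed as regulators of these receptors or of myeloid identity, all were tested. In YS against BM lines 4 were higher (Irf8, Cebpd, Maf and Il4ra) and 2 lower (Klf4 and Csf2ra). In FL against BM lines 6 were higher (Irf8, Irf4, Cebpa, Cebpd, Maf and Il4ra) and Csf2ra was lower, and between YS and FL lines Klf4 was lower in YS lines. In these comparisons the calls were 28.6%, 33.3% and 4.76% of the 21, against 12.8%, 10.3% and 3.79% of all genes tested. Without YS line 1 the 6 became 4, as Klf4 (log2 fold change -0.52) and Cebpd (0.96) fell under the 2-fold limit, and without BM line 2 the calls of Klf4 against BM lines and of Cebpa in FL lines were lost. Irf4 was under 1 TPM in BM lines and passed the filter through the others. The count between YS and FL lines was 3 without YS line 2 and 0 without any other line but YS line 3 and FL line 1. Spi1, which encodes PU.1, averaged 394 ± 31.7 TPM over the YS lines, 444.5 ± 11.4 TPM over the FL lines and 389.5 ± 24.4 TPM over the BM lines (mean ± SD, n = 3 per group). Cebpb, whose product is known to act on the Mincle gene, was not called (log2 fold change 0.32 for FL against BM lines, limma adjusted p = 0.461, standard error 0.27). Csf2ra, the GM-CSF receptor α chain, had 28.18, 53.10 and 91.33 TPM in the YS lines, 25.33, 68.80 and 69.14 TPM in the FL lines, and 216.41, 197.28 and 232.86 TPM in the BM lines (log2 fold change -2.04 for YS and -2.10 for FL against BM lines, standard error 0.47 each, adjusted p = 0.0151 and 0.0155). The transcription factor gene Maf was lowest in BM lines, at 22.99, 51.44 and 17.44 TPM against at least 187.92 TPM in each YS line and 241.02 TPM in each FL line (log2 fold change 2.97 and 3.41, standard error 0.37 each, adjusted p = 0.00201 and 0.000987). Irf8, Irf5, Irf4, Cebpd, Runx1 and Il4ra also had all BM lines below all others. Of all genes tested, 30.3% had all YS lines above all BM lines, and 31.0% had all FL lines above them. Mitf, like Csf2ra, had all BM lines above all others (40.03 to 45.33 TPM against at most 37.60 TPM). Of the 21 genes, YS and BM lines did not overlap in 12 (against 49.0% of all genes tested). FL and BM lines did not overlap in 16 (against 49.5%). A part of any of these genes in the receptor levels was not tested.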

How the data were processed

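RNA had been extracted from 3 YS, 3 FL and 3 BM lines, and poly(A)-selected, directional libraries were sequenced from a single end over 75 nt. TPM for 24411 gene symbols were deposited as 1 table. The submitters' processing notes name Trim Galore 0.6.6, STAR 2.7.9a and RSEM 1.3.3, and the genome build and annotation are not given in the sources used here. TPM carry no depth, so no counting error is given, and raw counts, on which the study ran DESeq2, were not used here.

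Lines were grouped and numbered from the sample labels. Log2(TPM + 1) was fitted with limma 3.58.1 in R 4.3.3 (all 9 libraries, intensity trend, Benjamini-Hochberg over the 11753 genes that reached 1 TPM in 3 or more libraries, with the study's limits of 0.1 and 2-fold), which was checked on simulated data. Members, gene lists and tests were chosen with earlier results of these data known. Named outside the members were listed genes that were called, Fcer1g, Tyrobp, Syk, Card9, Bcl10 and Malt1, and the 3 genes most like each member, of which 1 is not reported here. The other genes given as examples (markers, Necap1, C3ar1, Tnf, Spi1, Cebpb, Irf5, Runx1, Mitf, Ctsc's and Pparg's levels, and genes near 0) were chosen after their values were seen. Alternatives changed the pseudocount, filter, scaling, trend, libraries, limits and block. The pairing of line numbers was checked and is described at the end.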

Additional observations from a re-analysis of the deposited data

How the results depend on the processing

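Of the 20 alternatives, the calls of Clec4a1 and Clec4a3 against BM lines, of Clec12a for YS against BM and of Clec4e for FL against BM were kept in all. With a pseudocount of 4 the log2 fold change of Clec4a1 for YS against BM was 3.35. The call of Clec12a for FL against BM was lost in 9, and that of Clec4d for YS against BM in 1. Clec5a was called for YS against BM without a fold limit. For genes that were never called, the sign was not fixed. For YS against BM, Clec4a2 (main value 0.08) was -0.058 with quantile normalization and -0.033 with median-of-ratios scaling, and Clec7a was 0.017 with a pseudocount of 4. Leaving out 1 line at a time gave -0.40 to 0.82 for Clec4a2, -0.85 to 0.35 for Clec4n and -0.47 to 0.42 for Clec7a for YS against BM. Without YS line 1, these 3 genes had -0.20, -0.78 and -0.47. For YS against FL, leaving out 1 line at a time gave -0.30 to 0.58 for Clec4a1, -0.47 to 0.16 for Clec5a and -0.067 to 0.82 for Clec7a. The cause of these changes was not tested.

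Counts of called genes moved as follows. Without a fold limit, signaling genes gave 12 in YS against BM, 13 in FL against BM and 6 in YS against FL, and regulators gave 10, 11 and 3. At this setting all genes tested gave 4455, 3247 and 1500 of 11753. Other lectins then gave 2 for YS against FL. Signaling genes gave 1 for YS against BM with quantile normalization. Targets for YS against BM gave 3 with a pseudocount of 4, with median-of-ratios scaling or at an adjusted p under 0.05, and 2 to 5 with 1 line left out. Targets for FL against BM gave 1 with a pseudocount of 4 and 2 with a filter at 5 TPM. Targets for YS against FL gave 3 with a filter at 5 TPM or at an adjusted p under 0.05, 1 with only the 2 groups fitted, and 3 to 5 with 1 line left out. Other lectins for YS against FL gave 0 with a pseudocount of 0.1, no filter, only the 2 groups or an adjusted p under 0.05, and 0 to 2 with 1 line left out. Regulators for YS against FL gave 0 with no filter, only the 2 groups or an adjusted p under 0.05, and 0 to 3 with 1 line left out. With 1 line left out, members called for YS against FL numbered 0 to 1, and signaling genes 0 to 1.

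Quantile normalization moved the median of all genes for YS against BM from 0.11 to -0.01, and the share of all calls that were higher in YS lines from 59.2% to 48.7%. In this comparison 4 members were called in either scaling. Line numbers did not pair the lines: deviations of same-numbered lines correlated between -0.118 and 0.0878, and 2 of 9 lines correlated best with their own number. With the replicate block, 4 members were called for YS against BM, 3 for FL against BM (Clec12a being lost, adjusted p = 0.107) and 0 for YS against FL. The depth behind TPM is unknown, so what counting error adds to low genes such as Clec4b1 cannot be given.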
